A study of Homo sapiens with 8 samples.

Results

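The regions described here are the 1400 NUP98-binding regions that the study listed for IMR90 cells, a line of human lung fibroblasts, out of 7104 regions in the 3 lists of the series. All rows of the IMR90 list were taken, and no measured value was used to choose them. The series holds 8 ChIP-Seq libraries, 1 per condition, from IMR90 cells, HUES6 cells (human embryonic stem cells, ESCs), and the neural progenitors (NeuPCs) and neurons derived from HUES6. The 3 IMR90 libraries were 1 pull-down with the polyclonal NUP98 antibody (catalogue number 2292), 1 with the monoclonal NUP98 antibody (2598) and 1 with normal rabbit IgG (2729). All were labelled as early passage IMR90 cells fixed in 1% formaldehyde for 10 min, and no treatment is labelled. For IMR90 cells the paper also describes crosslinking with disuccinimidyl glutarate in addition to formaldehyde. The list does not state the antibody, the crosslinking or whether libraries were pooled, so each value below belongs to 1 list with no replicate. No value has an error between replicates, no difference was tested, and the depth behind the list is unknown. Intervals are 95% intervals and cover counting error only, with regions taken as independent, which regions in a group are not.

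NUP98 is a nucleoporin with phenylalanine-glycine repeats. It helps to form the transport barrier of the nuclear pore complex, the channel through the nuclear envelope. It is mobile and is also found inside the nucleus, away from the pores, where it has been linked to chromatin. In ChIP-Seq an antibody pulls down crosslinked chromatin, and the sequenced fragments are placed on a reference assembly, so that a region is a stretch of that assembly where fragments pile up. The place of a region therefore has a meaning only within the assembly whose coordinates it carries.

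The coordinates of the IMR90 list were contained in a mouse assembly, mm9, and in none of the human assemblies examined. The submitters' processing notes name hg19 (GRCh37), a human assembly, for all libraries. The list names 20 chromosomes, 1 to 19 and X, which is the set of mouse autosomes plus X. Human chromosomes 20, 21 and 22 and the Y chromosome are not among them. Each region was compared with the last base of the chromosome of the same name in the 17 of 33 assemblies tabulated in the GenomeInfoDb package that carry all 20 names. In mm9, 0 of 1400 regions ran past a chromosome end. In the other 16 assemblies, between 5 and 691 regions did.

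In hg19, 98 regions (7.00%) on 8 chromosomes ran past the end. The hg38 assembly also left 98 outside, hg18 left 104 and the complete human assembly hs1 left 85. The overrun in hg19 was 15.4 Mb on chromosome 14, 12.3 Mb on chromosome 17 and 11.3 Mb on X, where 48 regions lay beyond the human end. The same count for the other lists gave the opposite picture. On named chromosomes, 0 of 2479 ESC and 0 of 3187 NeuPC regions ran past an hg19 end, and hg19 was the only assembly of the 17 that held all of them. In mm9, 276 ESC and 374 NeuPC regions ran past an end, and another 157 and 156 lay on chromosomes that mm9 does not have. Positions of the IMR90 list were for this reason not overlapped with the other lists.

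Between mouse assemblies the difference rested on few regions. In mm10, 5 regions on 2 chromosomes ran past the end, 4 of them on chromosome 7, where the last region ended 4.77 Mb beyond the mm10 end and 2.31 Mb before the mm9 end. None of these 5 had an adjusted p-value of at most 0.01, so among the 498 regions that did, mm9 and mm10 cannot be told apart. In mm39, 5 regions on 2 chromosomes ran past the end as well, 4 on chromosome 7 and 1 on chromosome 1. The rat assemblies rn6 and rn7 left 152 and 214 regions outside.

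The regions reached close to the mm9 ends. On chromosome 19 the last region ended at 61340447, which left 1983 bp, and on chromosome 13 it ended at 120278939, which left 5373 bp. On X, 2 and 11 the room was 39635, 82351 and 87766 bp. In all, 5 chromosomes had under 100 kb and 9 under 1 Mb left behind the last region, and the median room was 1.36 Mb. In mm10 and mm39, 9 chromosomes each also had between 0 and 1 Mb left, with medians of 0.959 and 0.874 Mb. Under 100 kb was left on 1 chromosome in mm10 and on 2 in mm39. In hg19 no chromosome had between 0 and 1 Mb left, and the median was 11.8 Mb. These medians count an overrun as negative room, on 8 chromosomes in hg19 and 2 each in mm10 and mm39.

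**Figure D1:**
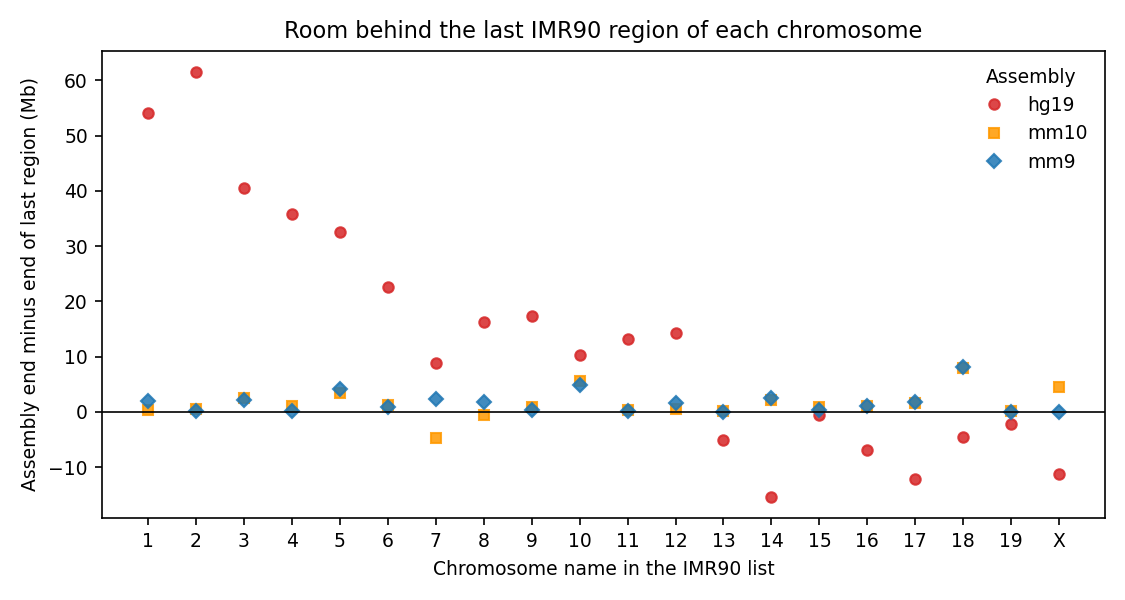
Distance in Mb from the end of the last IMR90 region to the end of the chromosome of the same name, for each of the 20 chromosomes, in the human assembly hg19 and the mouse assemblies mm10 and mm9; points below 0 mark regions that lie past the end. The mm9 points all lie above 0, with a median of 1.36 Mb, whereas 8 hg19 points and 2 mm10 points lie below 0.

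The starts of the chromosomes were compared in the same way. No IMR90 region started below 3 Mb, and the lowest start was 3001364 on chromosome 3. In contrast, 76 ESC regions (3.07%) and 82 NeuPC regions (2.57%) started below 3 Mb. Mouse chromosomes carry their centromere at one end, and their assemblies open with an unsequenced block that stands for it. On 5 of 20 chromosomes the first IMR90 region lay within 10 kb of the 3 Mb mark.

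The listed positions were also counted in some kinds of hg19 band, although 98 IMR90 regions ran past hg19 ends. The IMR90 positions were contained in mm9 and not in hg19. Their counts below are therefore matches of numbers only and do not place IMR90 regions in human bands. The stalks of the human short arms held 5 IMR90 regions (0.357%), 0 ESC regions and 0 NeuPC regions. Variable heterochromatin held 29 IMR90 regions (2.07%), 8 ESC regions (0.320%) and 19 NeuPC regions (0.593%). Centromeric bands held 31 IMR90 regions (2.21%), 41 ESC regions (1.64%) and 36 NeuPC regions (1.12%). The share of hg19 in these bands was not computed, nor whether regions could be called in each band. The counts therefore show no enrichment and say nothing about repeats in the IMR90 regions. Which cells the sequenced DNA came from was not tested.

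The list was a subset of a longer numbered series. Each region carries a running number, and the numbers ran from 2 to 2594 with none used more than once. They followed position along each chromosome, with the chromosome names in alphabetical order. Thus 1194 of the numbers up to 2594 (46.0%) were not in the list. Whether the series ran beyond 2594 is not given. All adjusted p-values in the list, as given by the authors' caller, were at most 0.0498. No value of the missing numbers is given. Counted from the first to the last number of each chromosome, the list kept 35.5% of the numbers on chromosome 12, 37.0% on chromosome 8 and 41.8% on chromosome 9. It kept 69.7% on X and 68.4% on chromosome 2.

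The regions were short and most had similar lengths. The shortest was 20 bp, the median 147 bp (interval 144 to 152 bp) and the longest 8871 bp. The quartiles were 133 and 201 bp. The commonest lengths were 139 and 141 bp, with 48 regions each, and 288 regions (20.6%) measured 130 to 140 bp, against 9.08% in ESCs and 17.2% in NeuPCs. The median in both other lists was 121 bp, with 127 bp in ESCs and 130 bp in NeuPCs at the upper quartile. In IMR90, 62 regions (4.43%) were 500 bp or longer, against 6 of 2499 ESC regions (0.240%) and 6 of 3205 NeuPC regions (0.187%). The longest 70 regions, 5% of the IMR90 list, made up 27.3% of the 304964 bp covered. In ESCs the longest 5% made up 10.7% and in NeuPCs 9.18%. The header of each of those 2 lists names MACS, whereas the study's methods name Genomatix for finding regions, so caller, cell type and the assembly that the coordinates fit cannot be told apart in these differences.

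**Figure D2:**
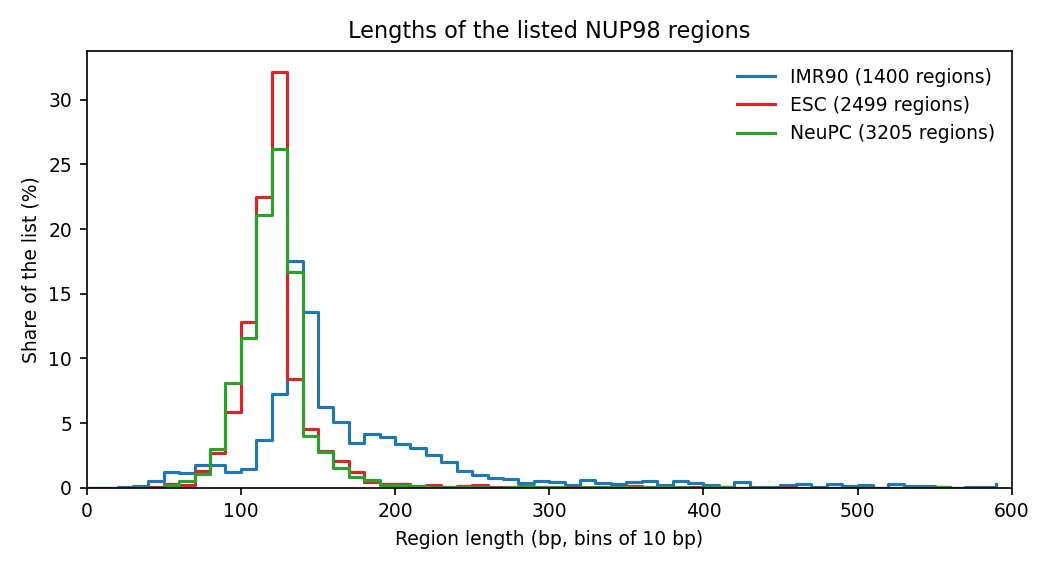
Share of each list (%) by region length in bins of 10 bp, up to 600 bp, for the IMR90, ESC and NeuPC lists. The IMR90 lengths peak above those of the other lists (median 147 bp against 121 bp) and carry a longer tail to the right.

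The 5 longest regions sat near chromosome starts or the X end. Of the 5 longest, 3 lay on chromosome 11 between 3040517 and 3063416, with lengths of 8871, 8391 and 2366 bp and adjusted p-values of 1.54e-07, 5.9e-19 and 0.000223. The third longest measured 4589 bp, lay on X from 166409857 to 166414446 and was listed at an adjusted p-value of 0. The fifth, of 2326 bp, lay on chromosome 4 from 3009299 to 3011625, with an adjusted p-value of 1.16e-27. The longest region away from these places measured 1971 bp, on chromosome 17 from 39979939 to 39981910. Its adjusted p-value was 0.0425, a high value for a long region.

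The adjusted p-values took few distinct values. The 1400 regions shared 245 values, and 722 regions (51.6%) carried 1 of the 6 commonest. The value 0.0132 alone was given to 267 regions (19.1%) and was also the median of the list, and 0.0446 was given to 180 (12.9%). Regions at 0.0132 were 37 to 261 bp long, with a median of 135 bp. A total of 498 regions (35.6%) had an adjusted p-value of at most 0.01, and 58 (4.14%) were under 1e-06.

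Regions with lower adjusted p-values were longer. The median length was 139 bp in the 902 regions at 0.01 and above and 183 bp in the 337 regions from 0.001 to under 0.01. It was 278 bp in the 103 regions from 1e-06 to under 0.001 and 628.5 bp in the 58 regions under 1e-06. Over the regions, Spearman's rho of length and adjusted p-value was -0.41 (n = 1400), a description only, since both come from the same fragments and neighbouring regions are not independent.

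Some regions with the lowest values went against this order. Of the 5 lowest, the region on chromosome 9 from 3002104 to 3002136 was 32 bp long and listed at 0. The region on chromosome 15 from 21586247 to 21586320 was 73 bp long, with an adjusted p-value of 4.38e-84. The shortest region of the list, 20 bp on chromosome 10 from 27482239 to 27482259, had 9.78e-07. The other 3 of the lowest 5 were longer, namely 4589 and 1063 bp on X and 810 bp on chromosome 15 (74916669 to 74917479, adjusted p-value 2.69e-48). A value listed at 0 may be one too small for the format, and the list does not say.

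Spacing split the list into lone regions and tight groups. The median gap between neighbours was 575286.5 bp (0.575 Mb, 1380 gaps), near the 0.590 Mb of NeuPCs and below the 0.734 Mb of ESCs. These medians come from 1400 IMR90, 3187 NeuPC and 2479 ESC regions. They were not adjusted for list size or assembly length. The spread around the median was wider in IMR90. In IMR90, 335 gaps (24.3%) were at most 10 kb and 213 (15.4%) at most 1 kb, against 62 (2.53%) and 22 (0.896%) in ESCs and 50 (1.58%) and 19 (0.601%) in NeuPCs. As for length, caller, cell type and assembly cannot be told apart in these differences. The smallest gap was 1 bp. At the other end, 39 gaps were wider than 10 Mb, on 18 of the chromosomes, and the widest measured 26.4 Mb, on chromosome 4 between 57163290 and 83582415.

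**Figure D3:**
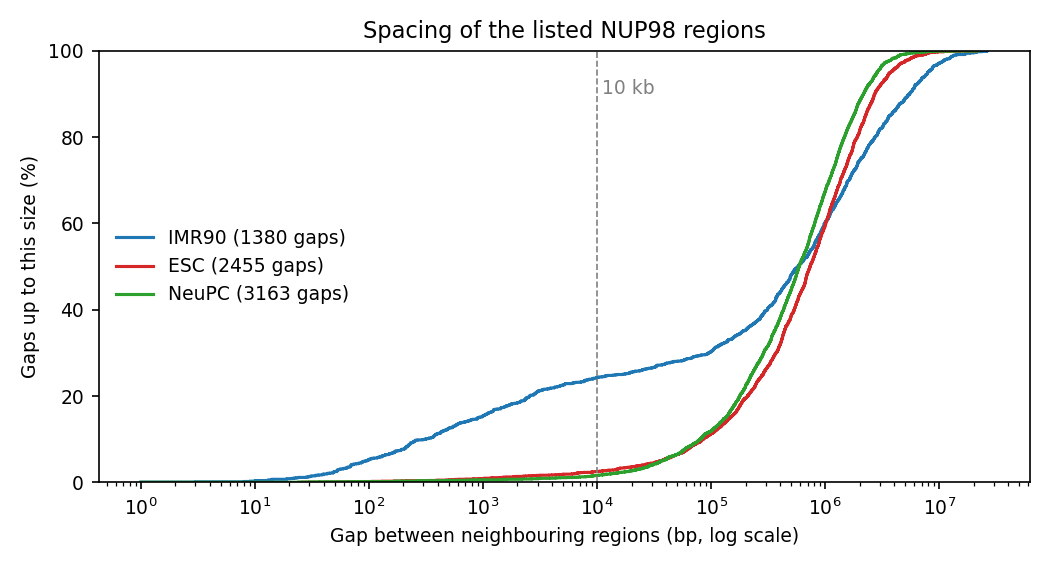
Cumulative share of gaps (%) between neighbouring regions of a chromosome, against gap size in bp on a log scale, for the IMR90, ESC and NeuPC lists; the dashed line marks 10 kb. The IMR90 curve reaches 24.3% at 10 kb, where the ESC curve is at 2.53% and the NeuPC curve at 1.58%.

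After neighbours at most 10 kb from each other had been merged into loci, the 1400 regions gave 1065 of them. Of these, 975 were single regions and 90 were groups of 2 or more, and the groups held 425 regions (30.4%, Wilson interval 28.0 to 32.8%). That interval takes regions as independent, although neighbours share their grouping. Without X the share was 26.8%, below the interval. In ESCs groups held 107 of 2479 regions (4.32%) and in NeuPCs 92 of 3187 (2.89%), with the same limit on caller, cell type and assembly. Between IMR90 loci the median gap was 1.1 Mb.

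Grouped and lone regions differed in length and value. The 975 single regions had a median length of 141 bp, and 296 of them (30.4%) had an adjusted p-value of at most 0.01. In groups of 2 to 4, the 164 regions had a median length of 163.5 bp, and 70 (42.7%) reached that value. The 261 regions in groups of 5 or more, which formed 17 loci on 9 chromosomes, had a median length of 203 bp, and 132 (50.6%) reached that value. The largest group, near the end of X, gave 44 of the 261 regions and 38 of the 132. Of the 22 regions of 1000 bp or more, 21 lay in groups of 5 or more and 1 was single. The 425 grouped regions covered 48.5% of all bases in the list.

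The 5 largest groups held 155 regions (11.1%). The first lay on X from 166407643 to 166446857 and held 44 regions of 81 to 4589 bp, which covered 28007 bp or 71.4% of its span. In this group 38 regions had an adjusted p-value of at most 0.01 and 20 were under 1e-10, out of 36 regions under 1e-10 in the whole list. It ended 203439 bp before the mm9 end of X, and 3 further regions followed it. Its numbers spanned 50, so 6 were missing.

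The second, on chromosome 1 from 90116916 to 90197774, held 38 regions of at most 531 bp. They covered 10.0% of 80858 bp, and 48 of the 86 numbers it spanned were missing. The third, on chromosome 17 from 3006719 to 3037703, held 29 regions and covered 25.3% of its span. The fourth, on chromosome 11 from 3025588 to 3094376, held 24 regions that covered 53.2% of 68788 bp, and it alone made up 12% of the bases of the list. The fifth, on chromosome 7 from 71218263 to 71235323, held 20 regions and covered 27.4%. The X group was thus made of nearly touching long blocks, with a median gap of 125 bp, while that on chromosome 1 was made of short blocks a median of 1420 bp apart.

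**Figure D4:**
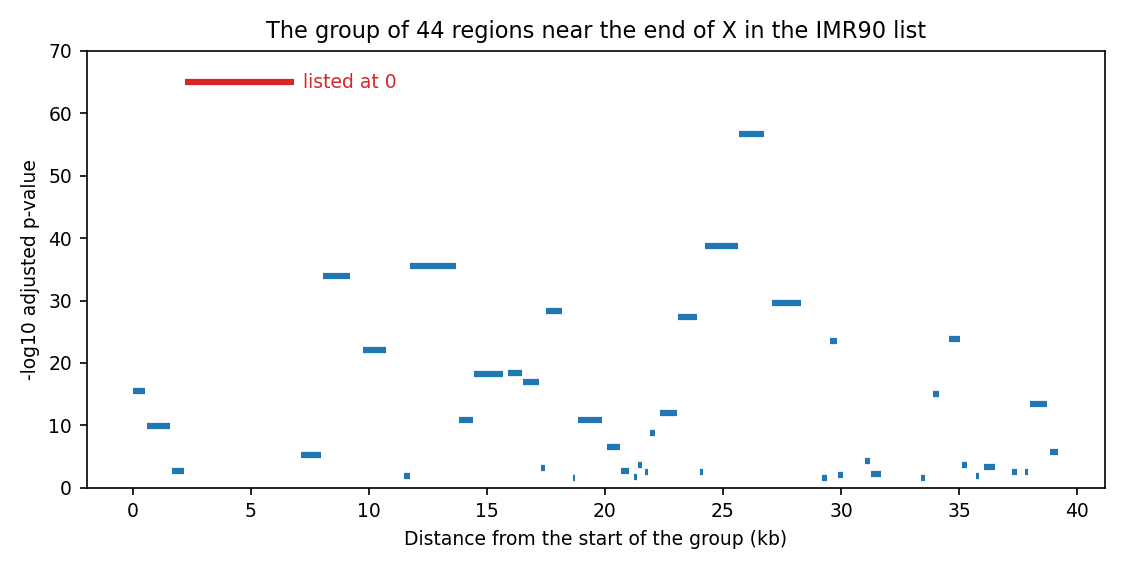
The 44 regions of the group near the end of X, each drawn as a bar from its start to its end against the distance from the group's start (kb), at the height of its -log10 adjusted p-value. The red bar is the region listed at 0, drawn at an arbitrary height; the next highest bar stands for an adjusted p-value of 1.83e-57.

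The edge of the 3 Mb block was one place where regions gathered. Within 200 kb after 3 Mb lay 97 regions (6.93%) on 9 chromosomes, which formed 12 loci. Such windows make up 0.152% of the mm9 length of the 20 chromosomes. They covered 56129 bp, 18.4% of the bases in the list. Chromosome 17 held 34 of them, chromosome 11 held 24, chromosome 3 held 18 and chromosome 4 held 12. The remaining 5 chromosomes had 1 to 3 each, and the other chromosomes had none.

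Regions were also frequent towards the far end of the chromosomes, away from the centromere in the mouse. The final 10% of each mm9 chromosome held 309 regions (22.1%), where an even spread over the full mm9 length gives 10%. The share was as high when each locus was counted once, with 249 of the 1065 loci (23.4%, Wilson interval 20.9 to 26.0%). The share of loci was above 10% on 19 of 20 chromosomes, the exception being chromosome 17 with 8.70%, and ran up to 44.4% on chromosome 19 (12 of 27 loci). On 13 chromosomes the final 10% held more loci than any other such step. On X the final 10% held 48 of 99 regions but 4 of 29 loci.

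The regions in the final 10% had slightly lower adjusted p-values. Of them, 47.6% were at most 0.01, against 32.2% elsewhere, and their median length was 156 bp against 145 bp. The group of 44 on X lies in this step, and without it 109 of 265 regions (41.1%) were at most 0.01, with a median length of 151 bp. The first 10% of the chromosomes held 185 regions but 72 loci (6.76%). The first 10% includes the opening 3 Mb block, where no region started, so an even spread over the remaining length gives it under 10%. In hg19, the final 10% held 337 of 2479 ESC regions (13.6%) and 389 of 3187 NeuPC regions (12.2%), and the first 10% held 11.5% and 10.4%. Human chromosomes have other arm lengths, so these shares stand beside each other without a test.

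Per Mb of mm9 length the list held 0.531 regions and 0.404 loci. Chromosome 17 was the densest, with 86 regions or 0.903 per Mb, followed by chromosome 8 with 100 regions (0.759) and chromosome 1 with 146 regions (0.740). Chromosome 14 was the sparsest, with 36 regions or 0.288 per Mb, and chromosome 12 had 38 regions (0.313). The densest and the sparsest chromosome differed 3.14-fold. Over the 20 chromosomes, Pearson's r of region count and mm9 length was 0.70 and Spearman's rho 0.61, given as a description because all points share 1 list.

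The order changed when each locus was counted once. Chromosome 5 then came first with 91 loci (0.597 per Mb) and X last with 29 (0.174 per Mb). Chromosome 17 fell from 86 regions to 46 loci, and X from 99 to 29, while chromosome 19 had 27 of each. On chromosome 8, regions up to 100 kb apart formed a run of 36 regions between 19703063 and 20033050, in which 136 of the 172 numbers spanned were missing.

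**Figure D5:**
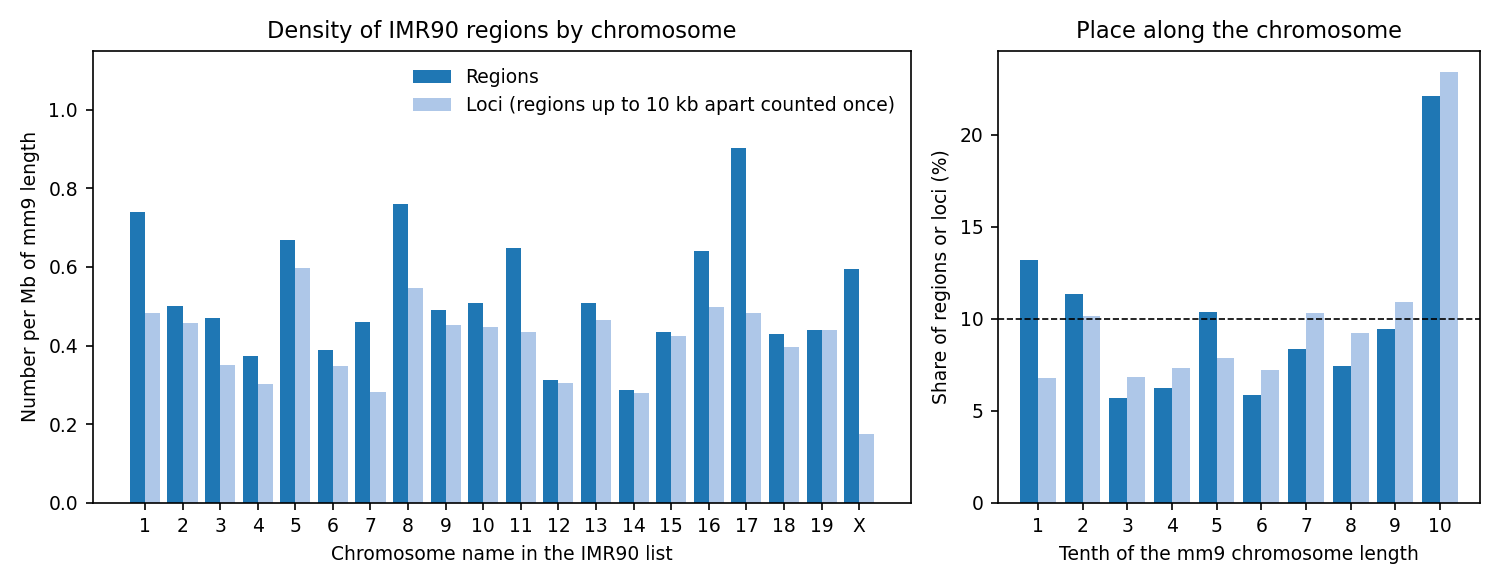
Left, regions (dark) and loci (light, regions up to 10 kb apart counted once) per Mb of mm9 length for each chromosome named in the IMR90 list; right, the share of regions and loci (%) in each 10% step along the chromosomes, with the dashed line at the 10% of an even spread over the full mm9 length. Chromosome 17 leads by regions and chromosome 5 by loci, and the final step holds 22.1% of regions and 23.4% of loci.

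The X chromosome combined few loci with many regions. Outside the group of 44 it held 55 regions, or 0.330 per Mb, with a median length of 141 bp, and 19 of them (34.5%) had an adjusted p-value of at most 0.01. With the group, 57.6% of its regions reached that value, whereas the autosomes ranged from 25% on chromosome 14 to 48.1% on chromosome 19. X also held 5 of the 39 gaps over 10 Mb, the widest of 26.0 Mb between 137711188 and 163684552.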

How the data were processed

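ChIP-Seq reads were mapped and NUP98-binding regions called by the authors with the Genomatix software (Audic-Claverie algorithm), per the study's methods. Versions and parameters are not given in the sources used here. The deposited IMR90 list holds positions, a running number and an adjusted p-value per region. The deposited ESC and NeuPC lists hold positions and a score by MACS, which was not used. Depth is not given in the lists.

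Positions are printed as listed, and length is end minus start. Chromosome lengths came from GenomeInfoDb 1.38.1 and hg19 bands from circlize 0.4.16. Neighbours up to 10 kb apart were joined into loci. Intervals of medians use order statistics, and intervals of shares the Wilson method. Python 3.11.15, numpy 2.4.6, pandas 2.3.3 and scipy 1.17.1 were used, and the functions were checked on a made-up list. No test was run, because each condition has 1 library and regions are not replicates.

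The members and measures were chosen with earlier results of these data known, and the shares along the chromosome after their values were seen. Named regions were the 5 largest groups, the 5 longest, the 5 with the lowest adjusted p-value and the first or last of a chromosome. The shortest region, the 1971 bp region on chromosome 17, the length band of 130 to 140 bp, the widest gaps and the chromosome 8 run were added after their values were seen. Genes and sequences were not assigned, as no mm9 annotation or genome was used here.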

Additional observations from a re-analysis of the deposited data

How the results depend on the processing

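No paired analysis was possible because every antibody and cell type pair has a single library. Over 31 comparisons of 12 results with an alternative, 14 moved a value by less than its counting interval, or a count or ratio by under 1.5 times. The other 17 moved it by more. Among the 14, the mm9 numbers and the ratio of densest to sparsest chromosome without X could not change, by construction. With an adjusted p-value of at most 0.01, 498 regions were left, with a median length of 200.5 bp and a median gap of 1211749 bp, by construction of the smaller list for the number. Under the same setting the densest chromosome exceeded the sparsest 4.76-fold, 29.5% of regions lay in the final 10% of the chromosome (a result and alternatives added after seeing the data), and 63, 63 and 64 regions ran past the ends of hg18, hg19 and hg38. None of the 5 regions past the mm10 ends reached that value (0 left), so in that subset mm9 and mm10 cannot be told apart. Counting regions up to 10 kb apart once left 54, 48 and 48 regions past the hg18, hg19 and hg38 ends. By construction, neither this count nor the stricter p-value can raise a number past an end. Merging within 1 kb moved the median gap to 906258 bp, a rise by construction, since it takes out the gaps up to 1 kb. The share of regions in groups was 22.1% when joined up to 1 kb and 38.5% up to 100 kb. A shorter join can only lower this share and a longer one only raise it, by construction. Without X the share in groups was 26.8%. Without the largest group, the share at most 0.01 in the final 10% fell from 47.6% to 41.1%, which was tried after seeing the data. In mm9 the number past an end was 0 in both settings tried, loci and the stricter p-value, by construction, since the full list gave 0. Where no construction is named, the cause was not tested. Read totals of the libraries are not known here, and what depth adds to the number of regions was not tested.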
